A study of Mus musculus with 12 samples.

Results

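The interleukin-1 and interleukin-18 family was followed here through 7 genes in mouse bone marrow-derived macrophages (BMDMs), namely the ligands Il1a, Il1b and Il18, the antagonists Il1rn and Il18bp, and the receptor chains Il1r2 and Il1rap. The 7 symbols were matched to gene identifiers of the count table through the mouse annotation, and all of them were found among its 48526 identifiers and among the 15523 genes that passed the filter on low counts. The study asked how a deletion upstream of Tnf alters the macrophage response to lipopolysaccharide (LPS), the outer membrane glycolipid of Gram-negative bacteria, which Toll-like receptor 4 senses. The 12 total RNA libraries formed 4 groups of 3, WT and KO cells each with and without LPS. KO cells were homozygous for the deletion of the enhancer named HSS9 in the labels and TNF-9 in the study, LPS groups were exposed for 6 hr, and UT groups carried the label PBS 6 hr. All cells were grown from femur and tibia marrow of young adult male mice in L929-conditioned medium, which is a source of macrophage colony-stimulating factor. The labels call the WT mice littermates of the KO mice, while the study's methods describe purchased C57BL/6 mice and homozygous breeding pairs, so a shared genetic background is not assured. Neither the labels nor the methods say that each library came from its own mouse, so the p-values below measure the spread between these libraries, which may be technical.

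IL-1 alpha and IL-1 beta are pyrogenic cytokines that bind the same receptor, whose signal needs the accessory chain IL-1RAP and runs through MyD88 and the IRAK kinases to NF-kB. Macrophages restrain this signal with the receptor antagonist encoded by Il1rn, which occupies the receptor without recruiting the accessory chain, and with IL-1R2, a decoy that binds ligand but does not signal. IL-18 drives interferon-gamma production by T and NK cells, is matured like IL-1 beta by inflammasome-bound caspase-1, and is captured in the extracellular space by IL-18 binding protein.

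Library totals ran from 26154533 to 36423921 counts, which left even the lowest member, Il1a in UT cells, with 9 to 32 counts per library. Levels are given as counts scaled to library size (CPM) after TMM scaling, a procedure that sets libraries to a common scale through the bulk of their genes, and levels of different genes are compared only after division by exon length (FPKM). All 10 macrophage markers, among them Adgre1, Csf1r and Lyz2, were present in every group, with summed levels of 29162 to 30235 CPM in WT UT, 33590 to 34696 CPM in KO UT, 28281 to 29825 CPM in WT LPS and 30612 to 32480 CPM in KO LPS libraries. Between the genotypes 0 of the 10 were called, where 1.82% of all tested genes were in UT cells and 1.25% after LPS. At any fold 5 passed the adjusted p higher and 1 lower in KO UT cells, where 23.8% of all genes passed. In KO LPS cells 6 passed higher, where 14.3% of all genes passed. The part of these markers in the genotype differences below was not tested. Tnf, the readout of the deletion, was lower in KO than in WT cells, at 432 ± 15.2 against 890 ± 57.4 CPM after LPS (SD, n = 3 each) and at 9.71 ± 0.727 against 15.3 ± 0.757 CPM in UT cells. The share of counts on small noncoding RNA genes, such as small nuclear and small nucleolar RNAs, differed between groups, at 3 to 3.25% in WT UT, 6.64 to 7.98% in KO UT, 4.04 to 6.89% in WT LPS and 3.23 to 3.43% in KO LPS libraries. In bulk RNA, fewer cells of a type and less RNA per cell cannot be told apart.

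**Figure D1:**
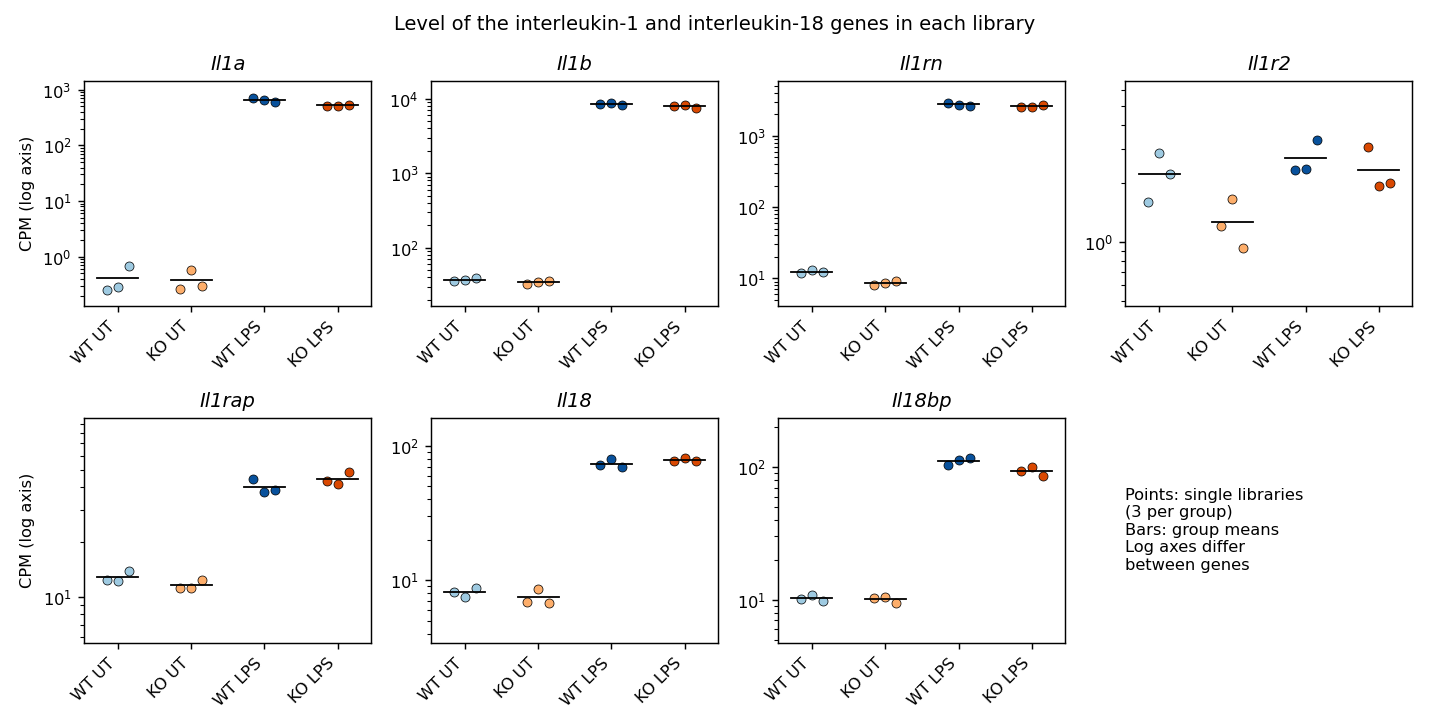
Level of each member in CPM (log axis, 1 panel per gene with its own range) in the 12 libraries. Points are libraries, bars are means of 3 libraries, and the LPS libraries of Il1a, Il1b, Il1rn, Il1rap, Il18 and Il18bp lie above all UT libraries whereas those of Il1r2 overlap the WT UT libraries.

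LPS raised 6 of the 7 members in WT cells and the same 6 in KO cells, by folds that ran from 3.16 for Il1rap to 1585 for Il1a in WT cells. A gene was called when its adjusted p in edgeR's quasi-likelihood test fell below 0.05 and its log2 fold change exceeded 1 in size, and 37.8% of all tested genes met this rule in WT cells and 37.0% in KO cells, 19.1% and 17.7% in the upward direction. The median log2 fold change of the members was 3.44 in WT and 3.40 in KO cells, beside 0.05 and -0.06 for all tested genes. The libraries of the 6 were apart between UT and LPS in both genotypes, as were those of 74.8% and 76.0% of all genes. The remaining member, the decoy receptor Il1r2, was not called in either genotype. Both LPS comparisons have their own UT libraries, so neither shares samples with the other. Between UT and LPS libraries the summed level of 10 stromal markers moved from 8.56 to 9.08 CPM up to 25.5 to 27.2 CPM in WT cells and from 13.4 to 13.5 CPM up to 38.3 to 38.9 CPM in KO cells, and that of 11 neutrophil markers, with Ly6g at 0 counts in all 12 libraries, moved from 68.5 to 72.9 CPM up to 84.9 to 114 CPM and from 81.8 to 83.9 CPM up to 96.5 to 106 CPM. In WT cells single genes carried both rises, Pdgfrb at 0.966 CPM in WT UT and 19.8 CPM in WT LPS libraries for the stromal sum and S100a8 at 7.32 and 52.7 CPM for the neutrophil sum. In KO cells the means were 1.26 and 19.7 CPM for Pdgfrb and 16.4 and 56.8 CPM for S100a8, and other stromal markers were higher after LPS too, among them Acta2 at 6.48 and 10.4 CPM and Dcn at 1.10 and 2.40 CPM. Of 8 tested stromal markers 1 was called higher and 1 lower in WT cells, with a median log2 fold change of -0.30, and 3 were called higher and 0 lower in KO cells, with a median of 0.60. Of 8 tested neutrophil markers Ngp and Ltf passed the filter on low counts only through UT libraries, and Mpo and Retnlg only through KO UT libraries. The filter thus fixed the lower values after LPS of Ngp and Ltf, and of Mpo and Retnlg in KO cells. In WT cells Mpo had means of 0.0509 CPM in UT and 0.0887 CPM in LPS libraries, and Retnlg of 0.0951 and 0 CPM. Of the other 4 neutrophil markers, S100a8 and Camp were called higher in both genotypes and S100a9 was called lower in KO cells. At any fold S100a9 in WT cells and Mmp8 in both genotypes passed the adjusted p lower. The part of these markers in the LPS differences was not tested.

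**Figure D2:**
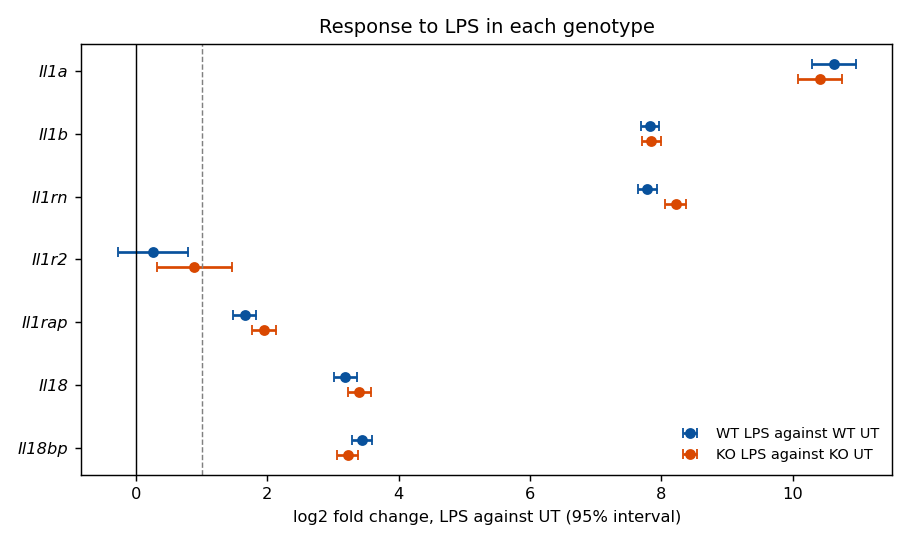
Log2 fold change of LPS against UT for the 7 members in WT and KO cells. Points are edgeR estimates, bars are 95% intervals and the dashed line marks the fold minimum of the call; Il1a lies farthest to the right at 10.63 and 10.42, and Il1r2 is the member whose intervals reach below the dashed line.

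Il1a and Il1b are neighbors on chromosome 2, at chr2:129299610-129309972 and chr2:129364570-129371139 of GRCm38, both on the minus strand and 54.6 kb apart. Il1a, which encodes a ligand that is active as a precursor and is released from damaged cells, was close to the detection limit in UT cells, at 11, 13 and 32 counts in the WT and 9, 20 and 12 counts in the KO libraries. After LPS it stood at 716, 656 and 613 CPM in WT and at 515, 514 and 541 CPM in KO libraries. All LPS libraries lay far above all UT libraries, and the log2 fold change was 10.63 ± 0.156 (SE) in WT cells (adjusted p = 3.86e-23) and 10.42 ± 0.161 in KO cells (adjusted p = 8.15e-23). By size of increase Il1a ranked 11 of 15523 genes in WT and 18 of 15523 in KO cells. The size itself leans on few UT counts, since it ran from 10.40 without WT UT replicate 1 to 11.23 without WT UT replicate 3, the library with 32 counts.

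Il1b, the secreted pyrogen that needs caspase cleavage, was already expressed in UT cells, at 35.3, 36.7 and 39.5 CPM in WT and 32.8, 35.2 and 36 CPM in KO libraries. LPS brought it to 8418, 8630 and 8294 CPM in WT and 8093, 8307 and 7496 CPM in KO libraries. The increase was 227-fold in WT and 230-fold in KO cells, with log2 values of 7.83 ± 0.0687 and 7.84 ± 0.0689 (SE). Il1b was the highest member per length in all 4 groups, and after LPS its mean level of 4430 FPKM in WT and 4177 FPKM in KO cells ranked 12 of 15523 genes in both genotypes. It then made up 82.4 ± 0.761% (SD) of the summed FPKM of the 7 members in WT cells and 83.1 ± 1.10% in KO cells, compared with 54.9 ± 0.631% and 56.6 ± 2.31% in UT cells.

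The starts of both ligand genes carry a TATA sequence at nearly the same place, which is shown here because they are the members with the largest LPS response beside Il1rn. The lines below give 120 bases before the RefSeq transcript start of each gene (GRCm38.p6, written 5′ to 3′ on the strand of the gene), with the TATAAA match of Il1a and Il1b and a match of Il1rn to a loose NF-kB pattern, which fixes G and C at its ends and leaves the middle open, in capitals. The windows are chr2:129309973-129310092 on the minus strand for Il1a, chr2:129371140-129371259 on the minus strand for Il1b, and chr2:24345251-24345370 on the plus strand for Il1rn, of whose 3 RefSeq starts the one farthest downstream is given.
Il1a: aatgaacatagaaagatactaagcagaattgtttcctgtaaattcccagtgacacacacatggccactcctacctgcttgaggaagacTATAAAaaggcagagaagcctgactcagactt
Il1b: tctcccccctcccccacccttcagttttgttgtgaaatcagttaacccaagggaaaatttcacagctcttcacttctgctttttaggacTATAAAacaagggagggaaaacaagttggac
Il1rn: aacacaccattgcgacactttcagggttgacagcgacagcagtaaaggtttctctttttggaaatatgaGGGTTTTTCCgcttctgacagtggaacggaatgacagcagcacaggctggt

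TATAAA began 32 bases before the start of Il1a and 31 bases before the start of Il1b, and 1.75% of 32851 mouse promoters held it on the strand of the gene with its first base 25 to 35 bases before the start, a window set after these positions were seen. No other member had it there, although TTTATA, the reverse complement, lay 175 bases before the start of Il18. The NF-kB match GGGTTTTTCC began 51 bases before that start of Il1rn, and a second match, GGGAGTGGCC, began 54 bases before the farthest upstream start, but 45.8% of all promoters held a match to this loose pattern within 250 bases on either strand. Il1rap, with the smallest increase among the called members, had 6 overlapping or neighboring matches to it. The other motifs searched on both strands were an interferon-stimulated response element (2.98% of promoters), TGANTCA (6.75%), TTNCNNAA (36.8%) and GAGGAA (23.3%). TGANTCA was found before a start of Il1a and of Il1rn, TTNCNNAA before a start of Il1a, Il1b, Il1rn and Il18bp, and GAGGAA before that of Il1a, where it overlapped the match to TTNCNNAA. All 7 members had a RefSeq start in the table, 9 starts in all, and a match describes letters only.

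Il1rn, at chr2:24336853-24351494 on the plus strand and far from the ligand genes, rose on the scale of Il1b. It stood at 12, 13.1 and 12.3 CPM in WT UT libraries and at 8.13, 8.75 and 9.13 CPM in KO UT libraries, and reached 2922, 2739 and 2610 CPM in WT LPS and 2512, 2565 and 2702 CPM in KO LPS libraries. The UT libraries of the genotypes were apart and the LPS libraries overlapped. The increase was 221-fold in WT cells (log2 fold change 7.79 ± 0.0732, adjusted p = 6.58e-26) and 299-fold in KO cells (8.22 ± 0.0756, adjusted p = 3.75e-26). Secreted and intracellular forms of the antagonist arise from different starts of the gene and are not separated in gene counts.

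The receptor chains responded least. Il1rap at chr16:26581704-26730117, the accessory chain shared by the receptors of IL-1, IL-33 and IL-36, went from 12.4, 12.2 and 13.8 CPM to 44.5, 37.7 and 38.9 CPM in WT cells, a 3.16-fold increase (adjusted p = 6.93e-14). In KO cells it went from 11.1, 11.2 and 12.3 CPM to 43.7, 41.8 and 48.5 CPM, a 3.86-fold increase (adjusted p = 5.35e-15). Il1r2 at chr1:40074079-40125231 was low throughout, at 1.61, 2.87 and 2.23 CPM in WT UT, 1.21, 1.67 and 0.936 CPM in KO UT, 2.35, 2.38 and 3.35 CPM in WT LPS and 3.07, 1.95 and 2.01 CPM in KO LPS libraries. In WT cells its libraries overlapped and its log2 fold change was 0.26 (95% interval -0.28 to 0.79, adjusted p = 0.375), so an increase of up to 1.73-fold was compatible with these counts. In KO cells the LPS libraries lay above the UT libraries, with a log2 fold change of 0.88 ± 0.275 (adjusted p = 0.00677) that did not reach the fold minimum. At any fold 72.8% of all genes passed the adjusted p in KO cells and 73.3% in WT cells, and Il1r2 no longer did in KO cells without KO LPS replicate 1 (0.65, adjusted p = 0.0631). Membrane and soluble forms of both chains are pooled in these counts.

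Il18 and its binding protein rose together. Il18, at chr9:50554827-50581840, went from 8.19, 7.48 and 8.66 CPM to 72.0, 79.9 and 69.0 CPM in WT cells and from 6.91, 8.55 and 6.80 CPM to 77.1, 80.8 and 77.1 CPM in KO cells. These were increases of 9.07-fold (log2 fold change 3.18 ± 0.0838, adjusted p = 6.66e-19) and 10.6-fold (3.40 ± 0.0863, adjusted p = 3.32e-19). Il18bp, at chr7:102014885-102018690, went from 10.2, 10.8 and 9.76 CPM to 104, 114 and 118 CPM in WT cells, a 10.9-fold increase (3.44 ± 0.0758, adjusted p = 2.99e-20). In KO cells it went from 10.3, 10.4 and 9.43 CPM to 93.7, 101 and 86.2 CPM, a 9.32-fold increase (3.22 ± 0.0770, adjusted p = 1.15e-19). Il18bp shares 80 exonic bases with Numa1 on the opposite strand, and since whether the counting used strand is not given in the sources used here, reads from that stretch cannot be assigned with certainty.

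Per length, the order of the members changed with LPS. In WT UT cells it was Il1b at 19.5 FPKM, Il18 at 7.86, Il18bp at 3.39, Il1rn at 2.25, Il1r2 at 1.2, Il1rap at 1.13 and Il1a at 0.207 FPKM, and Il1r2 and Il1rap were the only neighbors whose libraries overlapped. In KO UT cells Il1rap at 1.02 FPKM stood above Il1r2 at 0.668 FPKM and no neighbors overlapped. After LPS the order in WT cells was Il1b at 4430 FPKM, Il1rn at 498, Il1a at 335, Il18 at 71.4, Il18bp at 36.9, Il1rap at 3.55 and Il1r2 at 1.41 FPKM, with the libraries of all neighbors apart, and KO cells had the same order. Il1a thus moved from the last place to place 3 and Il18 from place 2 to place 4. Together the 7 genes took 0.0108 ± 4.73e-04% (SD) of all counts in WT UT and 0.00860 ± 3.85e-04% in KO UT libraries, and 0.985 ± 0.0280% in WT LPS and 0.923 ± 0.0297% in KO LPS libraries.

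Between KO and WT cells after LPS, 0 of the 7 members were called by edgeR, where 1.25% of all tested genes were, and 2 had an unadjusted p under 0.05. DESeq2 also called 0. The same 2, Il1a and Il18bp, passed the adjusted p at any fold, where 14.3% of all genes did and 6.54% in the downward direction, both lower in KO cells. Il1a was 1.27-fold lower, with KO libraries at 514 to 541 CPM below WT libraries at 613 to 716 CPM (log2 fold change -0.34 ± 0.0873, adjusted p = 0.0125). Il18bp was 1.19-fold lower, with KO libraries at 86.2 to 101 CPM below WT libraries at 104 to 118 CPM (-0.25 ± 0.0660, adjusted p = 0.0136). The libraries of the genotypes were likewise apart for 29.1% of all genes. Il1a missed the adjusted p without KO LPS replicate 1 (-0.33, adjusted p = 0.0539) and was -0.54 (adjusted p = 2.63e-04) with the small RNA share as a covariate. Il18bp missed the adjusted p without WT LPS replicate 2 (-0.24, adjusted p = 0.0545), without KO LPS replicate 3 (-0.20, adjusted p = 0.0871), in a fit to the LPS libraries alone (-0.26, adjusted p = 0.0544) and with that covariate (-0.06, adjusted p = 0.747).

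For the other members the libraries of the genotypes overlapped after LPS. The interval of Il1b ran from -0.19 to 0.02 around a log2 difference of -0.08 (adjusted p = 0.288), and that of Il1rn from -0.20 to 0.02 around -0.09 (adjusted p = 0.293). With the small RNA share as a covariate Il1rn was lower in KO cells after LPS (-0.25, adjusted p = 0.00379). Il1r2, at -0.19, had the widest interval of the members, from -0.75 to 0.36. Il1rap at 0.14 (interval -0.02 to 0.31) and Il18 at 0.09 (-0.06 to 0.24) had estimates above 0. Tnf, which lies downstream of the deletion, fell by 1.04 on the log2 scale in the same libraries, with an interval from -1.17 to -0.92 that none of the members' intervals reached. The median over the members was -0.09, beside -0.01 over all genes. The stromal marker sum was 25.5 to 27.2 CPM in WT LPS and 38.3 to 38.9 CPM in KO LPS libraries, with 5 of 8 tested markers called higher, and its part in these differences was not tested. The neutrophil marker sums of the genotypes overlapped after LPS, and 0 of 8 tested neutrophil markers were called. At any fold 1 of the 8 passed the adjusted p in edgeR. This was S100a9, at 6.08 CPM in WT LPS and 10.2 CPM in KO LPS libraries (0.76, adjusted p = 9.36e-04).

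**Figure D3:**
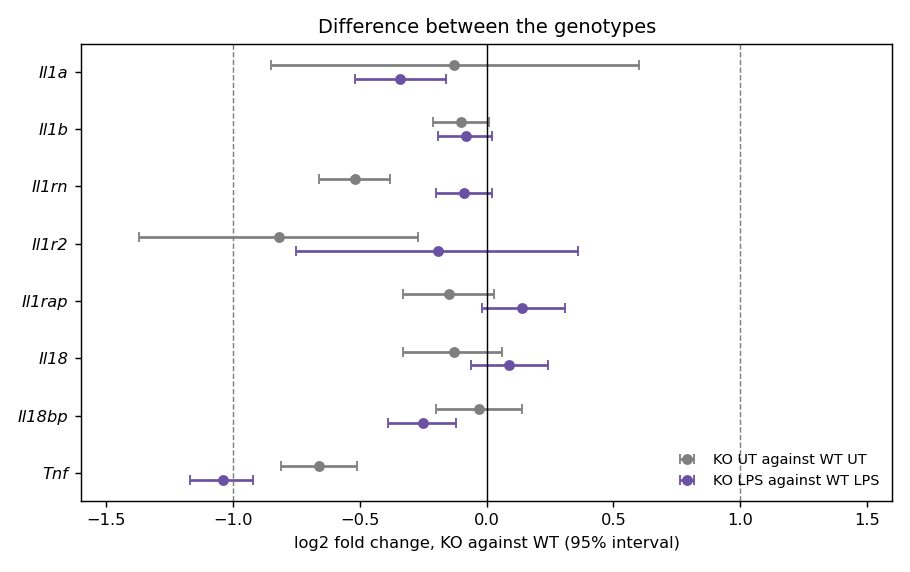
Log2 fold change of KO against WT for the 7 members and for Tnf, in UT cells and after LPS. Points are edgeR estimates, bars are 95% intervals and dashed lines mark the fold minimum; no member lies past it, Il1rn is away from 0 in UT cells at -0.52 but not after LPS at -0.09, and Tnf lies at -1.04 after LPS.

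In UT cells all 7 members had a lower estimate in KO than in WT cells, 0 of 7 were called by edgeR (1.82% of all genes), 2 had an unadjusted p under 0.05 and 2 passed the adjusted p at any fold (23.8% of all genes, and 9.69% in the downward direction). DESeq2 also called 0. Il1rn was 1.43-fold lower, at 8.13 to 9.13 CPM in KO and 12 to 13.1 CPM in WT libraries, with no overlap (log2 fold change -0.52 ± 0.0669, adjusted p = 7.23e-06). The libraries were apart for 40.8% of all genes. Il1r2 was 1.77-fold lower, although KO libraries at 0.936 to 1.67 CPM overlapped WT libraries at 1.61 to 2.87 CPM (-0.82 ± 0.264, adjusted p = 0.0267). The Il1r2 estimate missed the adjusted p without WT UT replicate 2 (-0.61, adjusted p = 0.162), WT UT replicate 3 (-0.83, adjusted p = 0.0606), KO UT replicate 1 (-0.79, adjusted p = 0.0847) or KO UT replicate 3 (-0.63, adjusted p = 0.130), and passed the fold minimum without WT UT replicate 1 (-1.01, adjusted p = 0.0109) or KO UT replicate 2 (-1.06, adjusted p = 0.0145).

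The other estimates in UT cells were -0.10 for Il1b (interval -0.21 to 0.01), -0.15 for Il1rap (-0.33 to 0.03), -0.13 for Il18 (-0.33 to 0.06), -0.03 for Il18bp (-0.20 to 0.14) and -0.13 for Il1a (-0.85 to 0.60), each with overlapping libraries. Il1b passed the adjusted p under the scaling of DESeq2, in edgeR (-0.17, adjusted p = 0.0213) and in DESeq2 (-0.17, adjusted p = 0.0227). The median over the members was -0.13, beside 0.00 over all genes. The UT groups also differed in neutrophil marker sums, 68.5 to 72.9 CPM in WT and 81.8 to 83.9 CPM in KO libraries, with S100a8, S100a9 and Camp called higher, and in stromal marker sums, 8.56 to 9.08 and 13.4 to 13.5 CPM, whose part in the result was not tested. Mpo and Retnlg were called higher too, but they passed the filter only through the KO UT libraries, which fixed their direction. Mmp8, of the same neutrophil list, went the other way, at 49.0 CPM in WT UT and 35.8 CPM in KO UT libraries. Its log2 fold change in edgeR was -0.45 (adjusted p = 1.88e-05), which was not called. The UT groups differed in the small RNA share as well, without overlap, so a fit with that share cannot fully tell it from the genotype. With the share as a covariate the estimate of Il1rn was -0.22 (adjusted p = 0.235) and that of Il1r2 was -1.69 (adjusted p = 0.178).

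The LPS response of Il1rn was larger in KO than in WT cells, with an interaction of genotype and LPS of 0.43 ± 0.0855 on the log2 scale (interval 0.25 to 0.61, adjusted p = 0.00127). It started 1.43-fold lower in KO UT cells and its KO libraries overlapped the WT libraries after LPS, at 2512 to 2702 CPM beside 2610 to 2922 CPM. It was the only member whose interaction passed the adjusted p, which 16.8% of all genes did, and edgeR and DESeq2 called 0 of 7, beside 2.16% of all genes in edgeR. At an unadjusted p under 0.05 there were 3, which were Il1rn, Il1rap and Il18bp. With the small RNA share as a covariate the interaction of Il1rn was -0.03 (adjusted p = 0.998). The largest interaction estimate of the members was that of Il1r2, at 0.63, with an interval from -0.15 to 1.41 (adjusted p = 0.284). The interactions next to Il1rn in size were 0.29 for Il1rap (interval 0.05 to 0.54, adjusted p = 0.0992), 0.22 for Il18 (-0.03 to 0.47) and -0.22 for Il18bp (-0.44 to 0.00). Without WT LPS replicate 1, Il1rap (0.37, adjusted p = 0.0174) and Il18bp (-0.28, adjusted p = 0.0442) passed the adjusted p too, and Il1rap also passed it under RLE scaling (0.37, adjusted p = 0.0304) and in DESeq2 (0.37, adjusted p = 0.0235). Il1b had an interaction of 0.02 (interval -0.14 to 0.17).

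The balance of antagonist and ligand was then read within each library, as the log2 ratio of their scaled counts, which does not depend on the scaling of the library. The counts are not divided by exon length here, so a ratio is compared between groups and does not say which gene had the higher level. The ratio of Il1rn to Il1b was -1.56, -1.49 and -1.68 in WT UT libraries and -2.01, -2.01 and -1.98 in KO UT libraries, and after LPS it was -1.53, -1.66 and -1.67 in WT and -1.69, -1.70 and -1.47 in KO libraries. The KO UT libraries stood below those of the other groups, by 0.42 on the log2 scale against WT UT (SE 0.0566, exact two-sided permutation p = 0.1, adjusted p = 0.200). With 3 against 3 libraries 0.1 is the smallest p that this test can give. In WT cells the ratio moved by -0.04 with LPS (exact permutation p = 0.700), so antagonist and ligand rose by nearly the same factor, and in KO cells it moved by 0.38 (exact permutation p = 0.1).

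The ratio of Il1a to Il1b was higher in every LPS library than in every UT library. Its mean was -6.59 in WT UT and -3.68 in WT LPS libraries, and -6.53 in KO UT and -3.93 in KO LPS libraries, which are changes of 2.91 ± 0.386 and 2.60 ± 0.336 on the log2 scale (exact permutation p = 0.1 each, the smallest possible). After LPS the ratio was lower in KO libraries, at -3.97, -4.01 and -3.79, than in WT libraries, at -3.55, -3.72 and -3.76, a difference of -0.25 ± 0.0921 (exact permutation p = 0.1, adjusted p = 0.200). The ratio of Il18bp to Il18 was 0.53, 0.51 and 0.77 in WT LPS and 0.28, 0.32 and 0.16 in KO LPS libraries, which did not overlap, with a difference of -0.35 ± 0.0978 (exact permutation p = 0.1, adjusted p = 0.200). In UT cells this ratio overlapped between the genotypes, with means of 0.34 in WT and 0.44 in KO cells. None of the 12 ratio comparisons could pass 0.05.

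**Figure D4:**
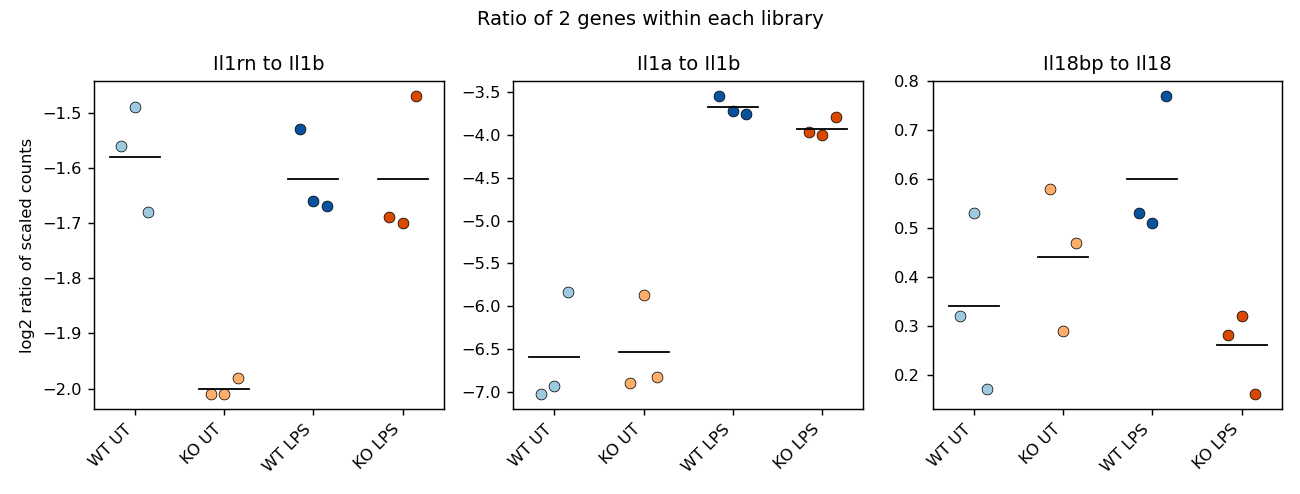
Log2 ratio of scaled counts of Il1rn to Il1b, Il1a to Il1b and Il18bp to Il18 in each of the 12 libraries, with a separate vertical range for each ratio. Points are libraries and bars are means of 3; the KO UT libraries are lowest for Il1rn to Il1b at -2.01 to -1.98, and the KO LPS libraries lie below the WT LPS libraries for Il18bp to Il18.

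The rest of the family was read from lists of its other ligands, receptors, processing and signaling genes. Of 6 further ligands, 3 passed the filter on low counts, and these passed through the LPS libraries in which they were high, so that their direction was fixed by the filter. Il33, the ligand of ST2, had 0 counts in all UT libraries and 66, 56 and 50 counts in WT LPS and 73, 76 and 59 counts in KO LPS libraries, which is at least 36.6-fold and 31.1-fold higher when the UT groups are set at 3 counts per library. Il36a had 0 counts in all UT libraries and 290, 244 and 251 counts in WT LPS and 259, 286 and 214 in KO LPS libraries, at least 168-fold and 114-fold higher. Il36g had a mean of 0.257 CPM in WT UT and 14.3 CPM in WT LPS libraries, and of 0.153 and 11.4 CPM in KO cells. Il36b and Il1f10 had 0 counts in all 12 libraries, and Il36rn, the antagonist of the IL-36 receptor, had 1 count in all.

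Of 8 further receptor genes 5 were tested, of which Sigirr and Il1rl1 passed the filter only through UT libraries, so that their lower values after LPS were fixed by it. Of the other 3, Il1r1 and Il1rl2 were called higher after LPS in both genotypes, where 19.1% of all genes were called higher in WT cells and 17.7% in KO cells. Il1r1, the signaling IL-1 receptor, rose from 0.998 to 8.57 CPM in WT cells (log2 fold change 3.10 ± 0.171) and from 0.683 to 9.89 CPM in KO cells (3.83 ± 0.185), and Il1rl2, the IL-36 receptor, rose from 1.42 to 6.82 CPM and from 1.03 to 7.46 CPM. Sigirr, an inhibitory receptor of the family, had a mean of 2.24 CPM in WT UT and 0.259 CPM in WT LPS libraries, and of 2.05 and 0.275 CPM in KO cells. Il1rl1, which encodes ST2, had means of 0.756 and 0.11 CPM in WT cells and of 1.31 and 0.291 CPM in KO cells. Il18rap, the accessory chain of the IL-18 receptor, had a log2 fold change of 0.74 and 0.89, which was not called, and Il18r1 was not tested, with at most 8 counts in any library. Per length, the 5 tested receptors had group means of at most 1.55 FPKM.

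Of 11 genes for inflammasome assembly, ligand cleavage and release, 5 were called higher and 1 lower in WT cells, where 37.8% of all genes were called and 19.1% were called higher. These were Casp1, the protease that matures IL-1 beta and IL-18 (2.79), Casp4, the sensor of intracellular LPS (3.75), Nlrp3 (3.10) and Aim2 (1.94), which build inflammasomes, and the pore former Gsdmd (1.90), whereas Nlrp1b had a log2 fold change of -3.31. The same 6 were called in KO cells in the same directions, with Nlrc4 added at 1.08 after 1.00 in WT cells. Of 12 genes that carry or restrain the receptor signal, 5 were called higher and 0 lower in each genotype, namely the adaptor Myd88 (2.37 in WT cells), the kinase Irak2 (1.67), the kinase-dead inhibitor Irak3 (3.24), Tab2 (1.18) and the ubiquitin ligase Peli1 (3.04). In either direction this share of the signaling list was near that of all genes, 37.8% in WT and 37.0% in KO cells, and upward 19.1% and 17.7% of all genes were called. The medians of these lists in WT cells were 1.00 for processing and 0.18 for signaling, beside 0.05 over all genes. Between the genotypes edgeR called 0 of the 31 tested genes of these 4 lists, in UT cells or after LPS, where 1.82% and 1.25% of all genes were called, while 13 had an unadjusted p under 0.05 in UT cells and 8 after LPS. At any fold 2 passed the adjusted p after LPS, where 14.3% of all genes passed, and 1 higher and 7 lower in UT cells, where 23.8% of all genes passed. The 2 after LPS, Irak3 (0.18, adjusted p = 0.0473) and Irak1 (0.18, adjusted p = 0.0499), were higher in KO cells. In KO UT cells Pycard was higher (0.48, adjusted p = 1.44e-04). The 7 lower genes were Aim2 (-0.43, adjusted p = 3.74e-05), Irak1 (-0.22, adjusted p = 0.00512), Irak2, Casp4, Nlrp3, Capn2 and Peli1. Irak1 thus differed in direction between UT and LPS cells. In the interaction 3 of the 31 genes passed higher and 1 lower, where 16.8% of all genes passed, among them Irak1 (0.41, adjusted p = 0.00164).

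**Figure D5:**
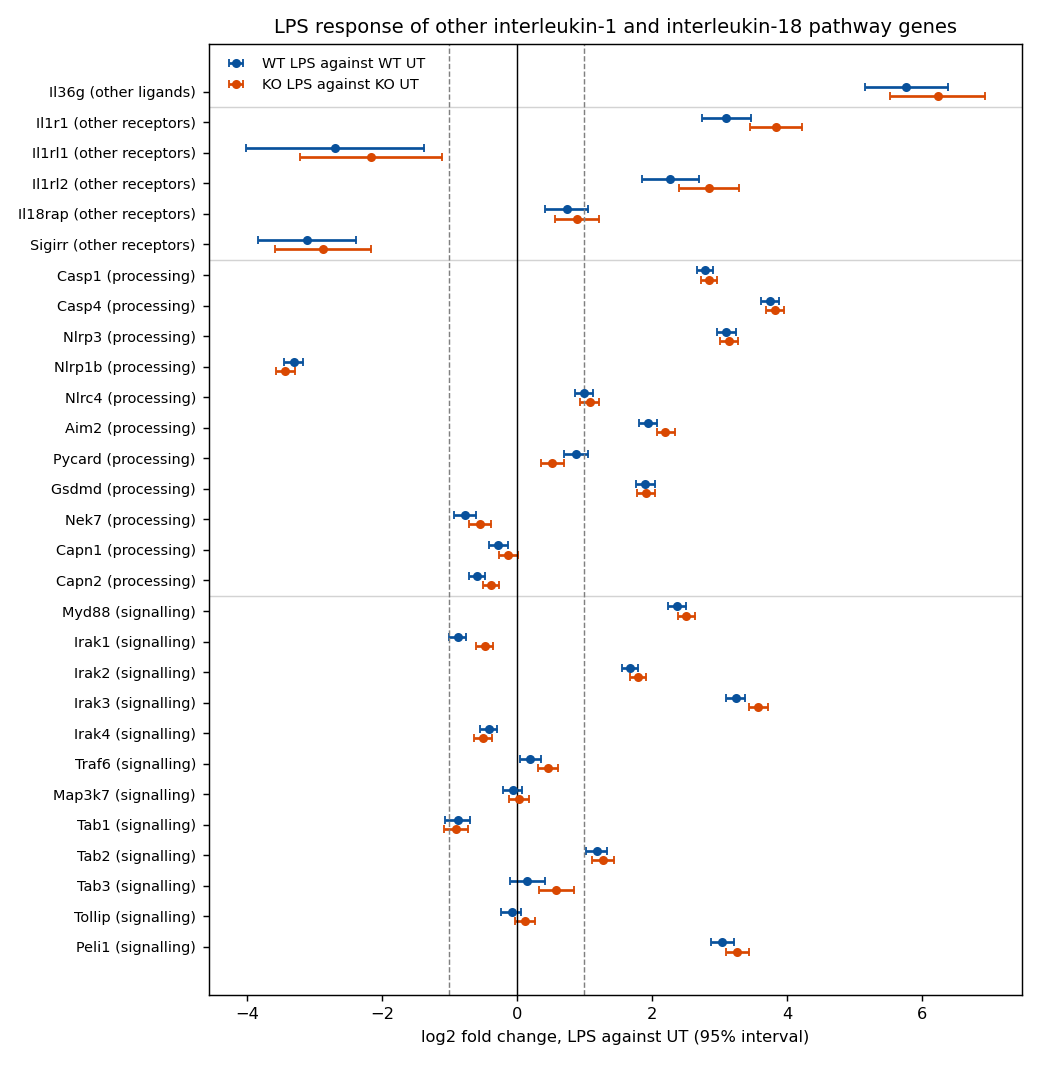
Log2 fold change of LPS against UT in WT and KO cells for the tested genes of the other ligands, receptors, processing and signaling lists. Points are edgeR estimates and bars are 95% intervals, with Il33 and Il36a left out because their UT counts are 0; Il36g lies highest at 5.77 in WT cells, and Nlrp1b (-3.31), Sigirr (-3.11) and Il1rl1 (-2.70) lie lowest.

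The genes whose log2 CPM followed each member most closely over the 12 libraries were also listed, among 9079 protein-coding genes with a mean of at least 5 CPM. For Il1a they were Nox1 (Pearson r = 0.9990), Edn1 and Noct, for Il1b Gsap (0.9998), Clec4e and Ikbke, for Il1rn Gbp5 (0.9998), Cd274 and Cflar, for Il1rap Lyn (0.9981), Ist1 and Zc3h12c, for Il18 Slc15a3 (0.9987), Lipg and Icam1, and for Il18bp Ccl3 (0.9995), Otud5 and Pgs1. Each of these 6 members had between 600 and 909 genes with r over 0.99, and the libraries fall into 2 sets by LPS, so the values mostly record that split. Gbp5, the nearest gene to Il1rn, had means of 4.99 and 3.44 CPM in WT and KO UT cells and of 1505 and 1402 CPM after LPS. Il1r2 had 0 genes with r over 0.9, and among those most like it were Cplane1 (0.8927) and Fam135a.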

How the data were processed

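Total RNA of BMDM cultures was sequenced as 101 bp paired-end reads from stranded, globin-depleted libraries. Per the labels and the methods of the study, the authors checked reads with FastQC 0.11.9, aligned them to GRCm38 with HISAT2 2.1.0, converted them with SAMtools 1.17 and counted them per gene with featureCounts 2.0.0. The deposited values are these raw counts per gene. Which annotation release was counted, whether strand was used and how reads with several hits were handled are not given in the sources used here.

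Identifiers were matched to GENCODE M21 (48144 of 48526). Genes were filtered with filterByExpr (minimum count 10, minimum total 15), scaled by TMM and tested in edgeR 4.0.16 by the quasi-likelihood test on 4 group means over 12 libraries, with Benjamini-Hochberg adjustment over 15523 genes. A call needs adjusted p below 0.05 and a log2 fold change beyond 1. FPKM was CPM per kilobase of merged exons. Ratios took a prior of 0.5 counts and an exact permutation test, adjusted over 12 tests. The fit was tested on simulated counts of 15066 genes for KO LPS against WT LPS, where 44 of 50 genes changed by a log2 fold of 1 were recovered. Recovery there meant an adjusted p below 0.05 in the right direction, without the fold minimum of the call. Replicates of 1 group differed beyond sampling noise in every pair (chi-square per degree of freedom of at least 3.77), so none was counted as a duplicate.

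The replicate number equals the batch number in the labels, which pairs the libraries across groups by label, and the deviations of 18 same-numbered pairs correlated between -0.0631 and 0.0373. The alternatives were DESeq2 1.42.0, RLE and upper-quartile scaling, other filters, protein-coding genes only, the small RNA share as covariate, the replicate block, fits to the groups compared, no fold minimum, a prior of 2 counts for ratios, and each of the 12 libraries left out in turn. The members, the lists and the motifs were chosen with earlier results of these data known. Named genes are the members, the listed pathway genes, Tnf and the 3 protein-coding genes of mean CPM at least 5 most correlated with each member, of which 1 is not reported here. Promoter sequences are from RefSeq (GRCm38.p6), and sequences of proteins were not used here.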

Additional observations from a re-analysis of the deposited data

Results flagged for a closer look

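The difference between KO and WT cells in Il1rn was not the same without and after LPS. It was -0.52 on the log2 scale in UT cells, with no overlap of the libraries, and -0.09 after LPS, with overlap, and the interaction term of genotype and LPS in edgeR was 0.43 (SE 0.0855, adjusted p = 0.00127, 3 libraries in each of 4 groups). It was flagged because this test of the difference between the 2 genotype effects passed the adjusted p. Of the 7 members 1 passed, and 16.8% of all tested genes did, so passing does not set the family apart. With the small RNA share as a covariate the difference was -0.22 in UT cells (adjusted p = 0.235) and -0.25 after LPS (adjusted p = 0.00379), and the interaction was -0.03 (adjusted p = 0.998). That share did not overlap between the genotypes in UT cells or after LPS, so this fit cannot fully tell it from the genotype. Under the other alternatives the interaction kept its sign and its side of the threshold, up to 0.51 under RLE scaling.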

How the results depend on the processing

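Of 560 recomputed log2 fold changes of members, 535 kept their direction and their side of the call, 4 came past the call and 21 changed sign, none of them called, though the interaction of Il1rn among them had passed the adjusted p. Under every alternative run 6 members were called in the WT response to LPS and 6 or 7 in the KO response, where Il1r2 joined them without a fold minimum, without KO UT replicate 2 (1.13) and with the small RNA share as covariate (1.67). Over these, Il1rap lay between 1.47 and 2.00 and Il1a between 10.07 and 11.23. The median of all tested genes moved by -0.18 in both responses under upper-quartile scaling. With the replicate block, 0 members were called between the genotypes in UT cells and after LPS, 2 passed the adjusted p at any fold in each, and 6 were called with LPS in each genotype, so the pairing changed no member's call, and 164 genes in all were called after LPS against 194.

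Without a fold minimum, 2 members were called after LPS, 2 in UT cells and 1 in the interaction. Members past the adjusted p at any fold after LPS were 1 in a fit of the groups compared and 1 to 2 when a library was left out. In UT cells they were 0 with the small RNA share as covariate and 1 to 2 when a library was left out, and members called were 0 to 1 when a library was left out. In the interaction they were 2 under RLE scaling, 2 in DESeq2, 0 with the small RNA share and 1 to 3 when a library was left out. With the small RNA share, signs changed after LPS for Il1rap (-0.07) and Il1r2 (0.26), in UT cells for Il1rap (0.27) and Il1a (0.25), in the WT response to LPS for Il1r2 (-0.28), and in the interaction for Il1rap (-0.34), Il1rn (-0.03), Il1b (-0.09) and Il18bp (0.33), and Il1rn after LPS was -0.25 (adjusted p = 0.00379). The interaction of Il1b was 0.00 when genes needed a mean CPM of 1, and -0.03 with protein-coding genes only. When a library was left out, Il1a in UT cells ran from -0.54 to 0.47, Il18bp in UT cells from -0.06 to 0.02, and the interaction from -0.81 to 0.20 for Il1a and from -0.03 to 0.06 for Il1b. The log2 ratio of Il1rn to Il1b then ran from -0.08 to 0.04 after LPS and from -0.09 to 0.00 in the WT response, and that of Il1a to Il1b in UT cells from -0.27 to 0.44. The cause of these changes was not tested. Il1a in UT cells had at most 32 counts a library and Il1r2 at most 130.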

Other observations

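Genes that overlap members were also counted. Il1a shares 222 exonic bases with Gm14023, which had 218 counts over the 12 libraries against 88863 for Il1a, Il1b shares 25 bases with the antisense gene Il1bos (332 against 1240131 counts), and Il1rap shares 552 bases with Gm20319 (2 against 9423 counts). Numa1, which shares 80 bases with Il18bp, had 47218 counts against 17780.

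Other immune markers were low in all groups. The summed level of 6 dendritic cell markers was 7.08 to 8.51 CPM in UT and 11.9 to 15.2 CPM in LPS libraries, that of 7 mast cell and basophil markers 2.41 to 4.13 and 0.660 to 1.46 CPM, that of 6 B cell markers 0.993 to 1.91 and 0.135 to 0.613 CPM, and that of 7 T and NK cell markers was at most 0.794 CPM.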
